A study of Mus musculus with 2 samples.

Results

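De novo lipogenesis is the making of fatty acids from acetyl-CoA, and its transcripts were measured here in the liver of wild-type mice and of mice with a knockout of the splicing factor SRSF2. The genes are 10 named enzymes and regulators of the pathway, matched by RefSeq accession to the deposited tables, and all 10 of 10 were found, each on 1 accession, among 26440 genes in all. The data are 2 RNA sequencing libraries from an Illumina HiSeq2000: 1 of wild-type liver and 1 of liver with the genotype label SRSF2-/- (below, the knockout library), both from BALB/c mice at day 11 after birth. The series describes the deletion as specific to the liver. The labels do not say which Cre line or promoter drove it, which liver cells carried it or how many animals were pooled in a library. The question is which liver transcripts differ between the genotypes before weaning.

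In the liver, citrate leaves the mitochondria and is split into cytosolic acetyl-CoA, which is carboxylated to malonyl-CoA and joined into palmitate with electrons from NADPH. Elongation and desaturation then turn palmitate into stearate and oleate for triglycerides, membranes and lipoproteins. Transcription of these enzymes is known to be driven by SREBP-1, the product of Srebf1, after feeding and insulin, and by ChREBP, the product of Mlxipl, when sugar is plentiful. During suckling, when milk supplies fat, the pathway is known to be little used, and it rises at weaning to a diet rich in carbohydrate.

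The wild-type library held 22407743 reads and the knockout library 22111605, of which the 10 genes took 14005 and 18614. With 1 library per genotype there is no replicate, so no difference was tested against the spread between animals, and every value describes these 2 libraries. Levels are FPKM, which corrects fragments for the length of the transcript and the size of the library, and a pair of values joined by "against" gives the wild-type library first and the knockout library second. A range in brackets after a ratio is the exact Clopper-Pearson 95% interval of the read ratio, which covers counting error only. Log2 ratios are log2((knockout FPKM + 1) / (wild-type FPKM + 1)), and a gene is called at least 2-fold higher or lower on this scale if it had at least 1 FPKM in either library. The median log2 ratio of the 12477 genes past that filter was 0.55, so values relative to this median are given as well. Srsf2 stood at 27.9 against 11.8 FPKM, the direction its label gives. Hepatocyte markers were abundant in both libraries (Alb at 50399 against 25492 FPKM). The libraries also differed in sex chromosome transcripts: Xist had 13004 against 6 reads, and Ddx3y had 0 (a count that allows up to 3 reads) against 859. Sex and genotype therefore cannot be told apart here.

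The 7 enzymes of the pathway all had higher levels in the knockout library, as did 84.5% of all tested genes. The genes of the pathway's best known transcriptional activators had lower levels. Summed over the 7 enzymes, the level was 41.2 against 102 FPKM, a ratio of 2.47. That ratio is not relative to all genes, whose median log2 ratio was 0.70 with no pseudocount. Srebf1 stood at 46.7 against 17.6 FPKM, 2.65-fold lower (2.52 to 2.79). Mlxipl stood at 23.2 against 13.9 FPKM, 1.67-fold lower (1.56 to 1.79). By the 2-fold rule 4 of the 10 genes were higher (Acss2, Fasn, Elovl6 and Scd1) and 1 was lower (Srebf1), against 19.2% and 2.95% of all tested genes. Relative to the median of all genes, 2 were at least 2-fold higher (Elovl6 and Scd1) and 2 lower (Srebf1 and Mlxipl), against 5.67% and 6.66% of all genes. Relative to all genes the log2 ratios of the 7 enzymes ran from 0.06 for Acaca to 1.79 for Scd1. The median log2 ratio of the 10 genes was 0.82 and lay 0.27 above that of all genes. A higher level of any size was found for 8 of the 10, close to the 84.5% of all tested genes that were higher, so that count says little about these genes. All 10 passed the filter, Elovl6 and Thrsp through the knockout library alone. In tissue RNA, fewer cells of a type and less RNA per cell cannot be told apart.

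**Figure D1:**
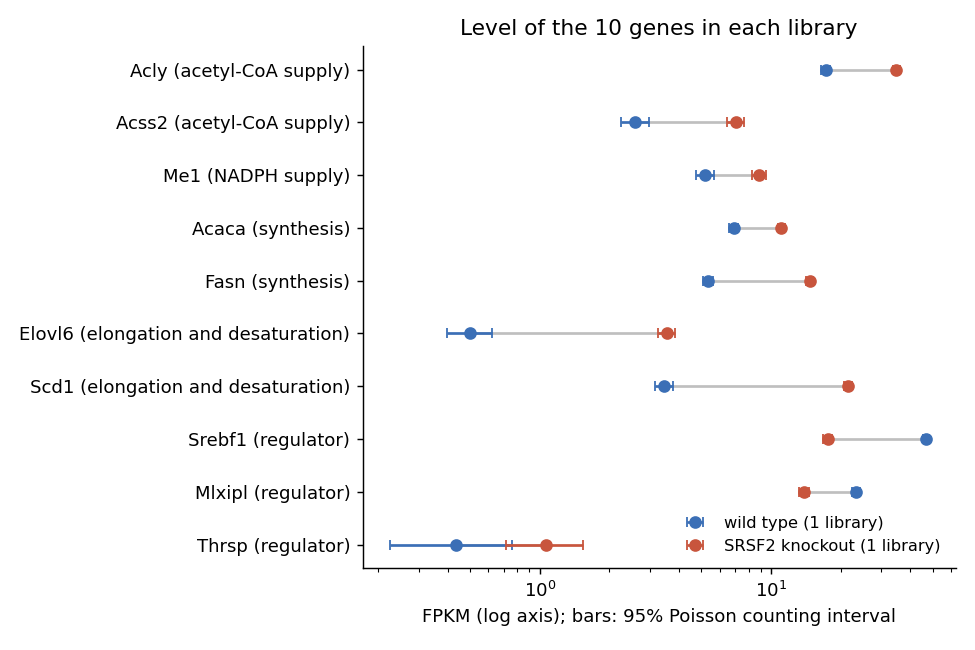
FPKM of the 10 genes (log axis) in the wild-type and the knockout library, 1 library each, ordered by role, with 95% Poisson counting intervals. The 7 enzymes and Thrsp sit to the right in the knockout library, Scd1 from 3.45 to 21.5 FPKM, and Srebf1 and Mlxipl sit to the left.

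Promoter windows from RefSeq (GRCm38.p6, 250 bases before to 50 after an annotated start) were found for 9 of the 10 genes, 13 windows in all, and Scd1 had no entry. The build differs from that of the deposited tables (mm9), and the windows were used for their letters only. They are shown for Srebf1 and Mlxipl, the genes that were lower, and for Fasn, the enzyme they are best known to drive. Capitals mark exact matches, on either strand, to TCACNCCAC (a core of the sterol regulatory element that SREBP proteins bind), CACGTG (the E-box read by ChREBP and USF proteins), CCAAT (the NF-Y box) and GGGCGG (the GC box of Sp1).
Fasn, chr11:120824498-120824797, minus strand: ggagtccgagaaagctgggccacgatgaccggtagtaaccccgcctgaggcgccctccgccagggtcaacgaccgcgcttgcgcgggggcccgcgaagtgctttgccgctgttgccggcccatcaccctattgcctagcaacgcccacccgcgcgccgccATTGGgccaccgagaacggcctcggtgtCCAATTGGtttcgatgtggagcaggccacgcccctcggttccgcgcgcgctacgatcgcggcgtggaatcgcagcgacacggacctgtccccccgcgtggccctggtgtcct
Srebf1, chr11:60210422-60210721, minus strand, 1 of its 3 windows: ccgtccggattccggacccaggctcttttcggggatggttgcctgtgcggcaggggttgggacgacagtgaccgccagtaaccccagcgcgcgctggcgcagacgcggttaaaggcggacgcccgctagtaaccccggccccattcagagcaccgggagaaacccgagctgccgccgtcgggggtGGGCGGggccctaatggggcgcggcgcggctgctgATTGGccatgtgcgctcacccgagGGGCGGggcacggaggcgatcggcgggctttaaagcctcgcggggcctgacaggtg
Mlxipl, chr5:135089640-135089939, plus strand: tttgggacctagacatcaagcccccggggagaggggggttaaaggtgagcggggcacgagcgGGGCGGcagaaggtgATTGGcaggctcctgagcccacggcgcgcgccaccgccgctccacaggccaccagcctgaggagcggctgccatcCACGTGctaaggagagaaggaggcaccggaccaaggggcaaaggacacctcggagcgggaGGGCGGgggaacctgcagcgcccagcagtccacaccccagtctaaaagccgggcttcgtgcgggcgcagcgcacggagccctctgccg
Mlxipl, chr5:135106641-135106940, plus strand: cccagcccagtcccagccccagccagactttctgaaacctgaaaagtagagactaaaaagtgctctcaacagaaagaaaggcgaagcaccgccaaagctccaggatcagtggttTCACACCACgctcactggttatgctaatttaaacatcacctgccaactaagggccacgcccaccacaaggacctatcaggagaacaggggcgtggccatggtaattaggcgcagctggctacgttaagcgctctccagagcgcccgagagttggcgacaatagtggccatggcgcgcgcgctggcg

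Counted by windows with at least 1 match, not by number of matches, the CCAAT box was the most frequent motif. It was found in 8 of the 13 windows, from 7 genes, against 37.4% of all 32851 windows of the same length. Fasn held 3 matches, 2 of them overlapping in a single run that reads as the box on both strands. The GC box was in 6 of 13 windows, from Acly, Acss2, Me1, Mlxipl and Srebf1, against 35.7% of all windows. The E-box and the sterol regulatory element core were each in 1 window, both of Mlxipl, against 7.15% and 1.24%. Neither Acaca nor Elovl6 held any of these letters in its single window, and whether their liver transcripts start there was not tested. Windows of 1 gene are not independent, and a match is a description of letters, not of binding.

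Acetyl-CoA enters the pathway by a pair of cytosolic enzymes, and transcripts of both were more abundant in the knockout library. Acly, ATP citrate lyase, which splits citrate, had 2023 against 4040 reads, or 17.2 against 34.8 FPKM, a ratio of 2.02 (1.92 to 2.13). Its log2 ratio of 0.97 lies just under the 2-fold rule, since the pseudocount of 1 pulls ratios toward 0. Acss2, which makes acetyl-CoA from free acetate, had 203 against 548 reads, or 2.58 against 7.05 FPKM, 2.73-fold higher (2.32 to 3.23). Acly was the most abundant enzyme of the 7 in each library. Me1, the cytosolic malic enzyme that supplies NADPH, was at 5.19 against 8.89 FPKM from 459 against 776 reads, 1.71-fold higher (1.52 to 1.92). Its log2 ratio of 0.67 was close to the median of all genes, 0.12 above it.

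The synthesis of palmitate rests on 2 large enzymes, whose ratios differed. Acaca, acetyl-CoA carboxylase 1, makes the malonyl-CoA that commits carbon to fatty acids, and it stood at 6.89 against 11.1 FPKM from 1741 against 2767 reads, 1.61-fold higher (1.51 to 1.71). Fasn, the fatty acid synthase, stood at 5.34 against 14.7 FPKM from 1409 against 3824 reads, 2.75-fold higher (2.58 to 2.92). The counting intervals of the ratios do not overlap. Relative to all genes the log2 ratio was 0.06 for Acaca and 0.75 for Fasn, and 90.8% of tested genes had a lower ratio than Fasn against 55.2% for Acaca. In the wild-type library Acaca was the more abundant of the pair and in the knockout library Fasn was.

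The enzymes that act on finished palmitate had the highest ratios of the 10 genes. Elovl6, which elongates palmitate to stearate, had 81 against 566 reads, or 0.501 against 3.54 FPKM, 7.07-fold higher (5.59 to 9.04). Scd1, the stearoyl-CoA desaturase that makes oleate, had 442 against 2731 reads, or 3.45 against 21.5 FPKM, 6.25-fold higher (5.65 to 6.93). Their intervals overlap, so which ratio was higher is not resolved at this depth. On the log2 scale they stood at 1.60 and 2.34, and 94.8% and 98.1% of tested genes had lower ratios. Of the summed enzyme FPKM, Scd1 made up 8.37% against 21.2% and Elovl6 1.22% against 3.49%, while the share of Acly went from 41.8% to 34.3% and that of Acaca from 16.7% to 10.9%.

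Among the regulators, Srebf1 and Mlxipl differed in the direction opposite to the enzymes. Srebf1 had 5385 against 2005 reads. Its log2 ratio was -1.36, which is -1.91 relative to all genes, and 1.81% of tested genes had a lower ratio. The tables hold 1 accession for Srebf1, so its alternative first exons, which give the isoforms of SREBP-1, cannot be separated. Mlxipl had 2250 against 1328 reads. Its log2 ratio was -0.70, which is -1.26 relative to all genes, and 4.60% of tested genes had a lower ratio. Thrsp, also called Spot 14, a small protein that responds to thyroid hormone and carbohydrate and promotes lipogenesis, was nearly silent, with 12 against 29 reads or 0.436 against 1.07 FPKM. Counting error put its ratio of 2.45 anywhere from 1.21 to 5.26, and its log2 ratio of 0.52 lay 0.03 under the median of all genes, so its direction depends on the scaling.

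**Figure D2:**
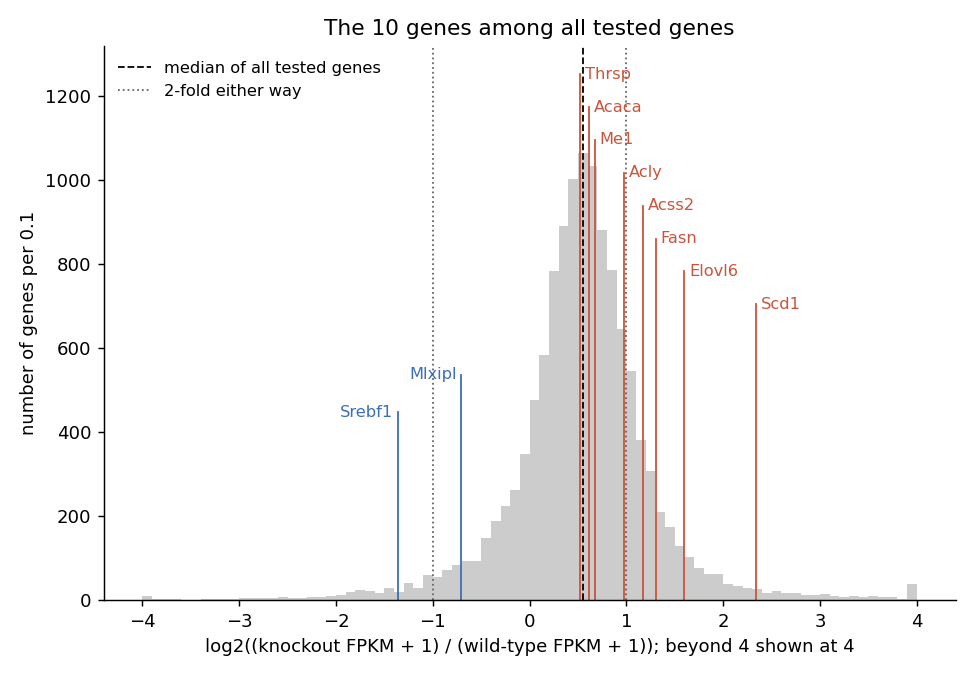
Number of genes by log2((knockout FPKM + 1) / (wild-type FPKM + 1)) over all 12477 tested genes (grey), with the 10 genes as labelled lines, the median of all genes dashed and 2-fold dotted. Thrsp, Acaca and Me1 lie at the bulk of the genes, Fasn, Elovl6 and Scd1 in the right flank and Srebf1 in the left tail.

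Within a library, the ratio of one gene to another does not depend on how the libraries are scaled. The ratios of the 7 enzymes to Srebf1 and to Mlxipl were all higher in the knockout library. Only 1.81% of tested genes had a lower log2 ratio than Srebf1, and 4.60% a lower one than Mlxipl. Nearly all tested genes thus stood higher relative to either regulator, so that direction says little about the enzymes. Ratios of enzymes to Thrsp, the regulator with 12 against 29 reads, were not computed. In the wild-type library Srebf1 and Mlxipl were the most abundant of the 10 genes, and 0 of the 7 enzymes exceeded either. In the knockout library Acly was first at 34.8 FPKM, Scd1 next at 21.5, and Srebf1 and Mlxipl at 17.6 and 13.9. Fasn stood at 0.115 of the Srebf1 level in the wild-type library against 0.835 in the other, a 7.29-fold change. The change in enzyme level per Srebf1 level ran from 4.27-fold for Acaca to 18.8-fold for Elovl6, and that per Mlxipl level from 2.69-fold to 11.8-fold for the same pair. Of the 45 pairs among the 10 genes, 9 reversed their order. They were Acly and Scd1 over Srebf1, Acly, Scd1 and Fasn over Mlxipl, Scd1 over Acaca, Fasn and Me1, and Fasn over Acaca.

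Most neighbours in these orders were apart by counting error. The intervals overlapped for Fasn and Me1 (5.34 and 5.19 FPKM) and for Elovl6 and Thrsp (0.501 and 0.436 FPKM) in the wild-type library. In the knockout library they overlapped for Fasn and Mlxipl (14.7 and 13.9 FPKM), so that reversal is not resolved at this depth.

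**Figure D3:**
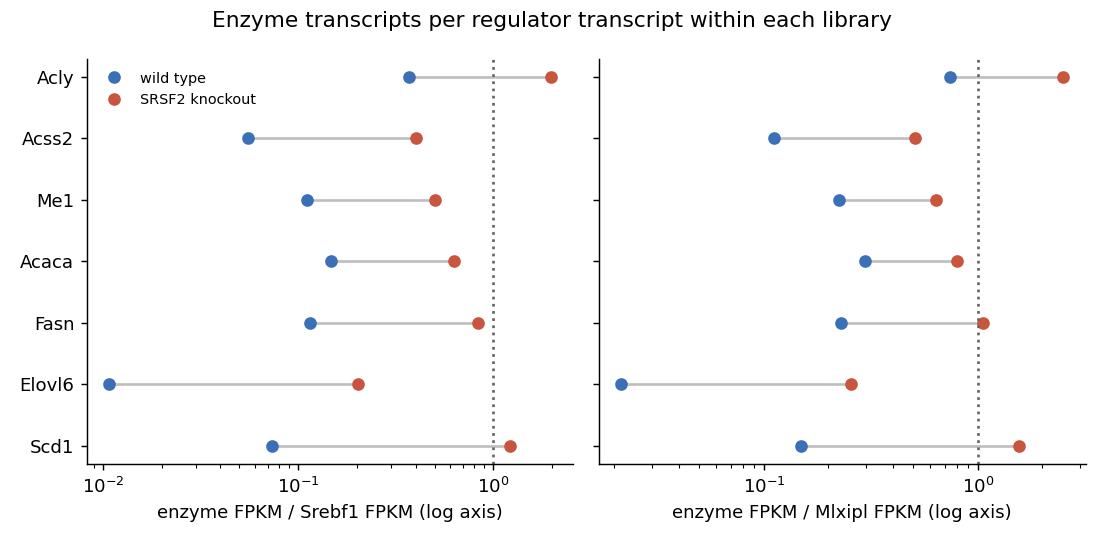
FPKM of each of the 7 enzymes divided by that of Srebf1 (left) and of Mlxipl (right) in the same library, on log axes, with equality dotted. All points of the wild-type library lie below 1, and in the knockout library Acly and Scd1 lie above 1 on both sides and Fasn on the right at 1.06.

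The other genes of the pathway were read from 10 lists of 99 genes, of which 97 were in the tables (Pgd and Mbtps2 were not matched and are not analysed here) and 91 passed the filter. By the 2-fold rule 22 of these 91 were higher and 3 lower, against 19.2% and 2.95% of all tested genes, and the median log2 ratio of 0.53 was near that of all genes. Relative to all genes 11 were higher and 9 lower, against 5.67% and 6.66%. The filter was passed through the knockout library alone by 5 of the 91, among them 2 of the 22, Acacb and Elovl7. The pathway around the 10 genes thus had members on both sides, and the lists are described below in the order of the reaction path.

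Among 9 tested genes of citrate and acetyl-CoA supply the median log2 ratio was 0.01, with 3 higher and 0 lower (1 and 1 relative to all genes). Those higher included Cs, citrate synthase, at 24.8 against 95.2 FPKM, and Slc25a1, the mitochondrial citrate exporter, at 33.9 against 76.4 FPKM. Relative to all genes the log2 ratio was 1.34 for Cs and 0.59 for Slc25a1, so of this pair only Cs was past 2-fold there. The subunits of the mitochondrial pyruvate carrier were lower without reaching 2-fold, Mpc1 at 129 against 70.5 FPKM and Mpc2, the most abundant of the list, at 261 against 209 FPKM. Relative to all genes Mpc1 was at least 2-fold lower, with a log2 ratio of -1.42, and Mpc2 was not, at -0.87. Of 7 tested NADPH suppliers 1 was higher and 0 lower (1 and 1 relative to all genes). This was Tkt, transketolase of the pentose phosphate pathway, at 15.8 against 58.6 FPKM, 3.70-fold higher (3.49 to 3.94). Pgls, the lactonase of the same pathway, stood at 43.6 against 31.5 FPKM, and H6pd, a hexose-6-phosphate dehydrogenase of the endoplasmic reticulum and the most abundant of the list, at 82.9 against 77.5 FPKM. The list median was 0.13.

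Genes of malonyl-CoA turnover and chain handling had a median log2 ratio of 0.74, with 3 of 7 tested higher and 1 lower (1 and 1 relative to all genes). Acacb, acetyl-CoA carboxylase 2, whose malonyl-CoA restrains entry of fatty acids into mitochondria, stood at 0.532 against 2.86 FPKM, 5.37-fold higher (4.44 to 6.54). The level of Acacb per Acaca went from 0.0773 to 0.258. Mlycd, which breaks malonyl-CoA down, was the member at least 2-fold lower, at 22.5 against 9.09 FPKM, 2.47-fold (2.27 to 2.70). Relative to all genes Mlycd was at least 2-fold lower, and Acacb and Acaca were past 2-fold in neither direction. Acot1, a cytosolic acyl-CoA thioesterase with near-identical copies whose reads may be shared, was at 2.06 against 30.4 FPKM, and Dbi, the acyl-CoA binding protein, at 214 against 569 FPKM. Fabp1, the liver fatty acid binding protein and the most abundant of the list, stood at 892 against 1304 FPKM. Mid1ip1, the relative of Thrsp that promotes polymerisation of acetyl-CoA carboxylase, was at 8.24 against 14.4 FPKM, well above Thrsp in each library.

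The other elongases and desaturases divided. Their median log2 ratio was 0.74 over 11 tested genes, with 3 higher and 0 lower (2 and 0 relative to all genes). Scd2, a close paralog of Scd1 best known from brain and newborn tissues, stood at 3.29 against 19.5 FPKM, 5.92-fold higher (5.37 to 6.54). Scd2 was at 0.953 of the Scd1 level in the wild-type library against 0.903 in the other, so the pair kept nearly the same ratio, although reads they share may have been divided between them. Fads3, a member of the fatty acid desaturase cluster, had the highest ratio at 1.49 against 26.2 FPKM, 17.6-fold higher (14.8 to 21.2), and Elovl7, an elongase, was at 0.728 against 3.49 FPKM. The genes of polyunsaturated fatty acid synthesis were far more abundant and differed less: Fads2, the delta-6 desaturase, stood at 193 against 343 FPKM and Elovl5 at 87.8 against 90.9 FPKM. Elovl5 was 175 times the level of Elovl6 in the wild-type library against 25.7 times in the other. Hacd3, a dehydratase of the elongation cycle, had the lowest ratio at 76.0 against 60.3 FPKM.

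Acyl-CoA activation and glycerolipid assembly, which place new fatty acids into triglyceride and phospholipid, had a median log2 ratio of 0.92 with 5 of 15 tested genes higher and 0 lower (3 and 1 relative to all genes). Acsl4, an acyl-CoA synthetase that prefers polyunsaturated chains, was at 7.05 against 49.7 FPKM, 7.05-fold higher (6.60 to 7.55), and its relative Acsl3 was at 2.04 against 11.0 FPKM. Gpam, the mitochondrial glycerol-3-phosphate acyltransferase and a known target of SREBP-1, stood at 7.37 against 22.3 FPKM. The phosphatidate phosphatase genes Lpin1 and Lpin2 stood at 5.92 against 13.1 FPKM and at 11.9 against 46.3 FPKM. Dgat2, which completes triglyceride from new fatty acids, had both the lowest ratio and the highest level of the list, at 161 against 115 FPKM.

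**Figure D4:**
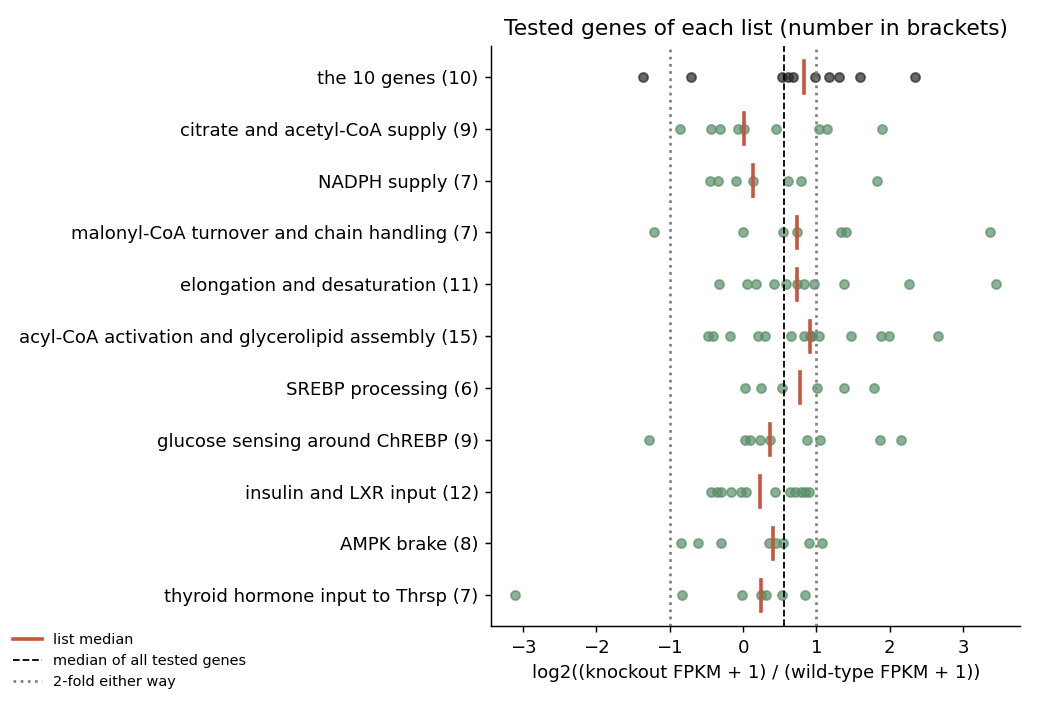
Log2((knockout FPKM + 1) / (wild-type FPKM + 1)) of every tested gene of the 10 genes (top row) and of the 10 lists around them, with list medians as bars, the median of all genes dashed and 2-fold dotted. List medians lie between 0.01 for citrate and acetyl-CoA supply and 0.92 for glycerolipid assembly.

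Genes that process SREBP proteins lay on both sides of the median of all genes. Of 6 tested, 3 were higher and 0 lower (1 and 0 relative to all genes), with a median of 0.77. Insig1 and Insig2, which hold the SREBP escort in the endoplasmic reticulum, stood at 8.44 against 31.6 FPKM, 3.74-fold higher (3.42 to 4.10), and at 16.2 against 43.5 FPKM. Srebf2, which encodes SREBP-2, the activator of cholesterol synthesis, stood at 6.94 against 15.0 FPKM, 2.16-fold higher (2.01 to 2.34). Its level per Srebf1 went from 0.149 to 0.854. Relative to all genes the log2 ratio of Srebf2 was 0.46, past 2-fold in neither direction, and that of Srebf1 was -1.91. Scap, the escort and the most abundant of the list in the wild-type library, was at 28.1 against 33.6 FPKM. Mbtps1, the site-1 protease that cuts SREBP, was at 15.9 against 16.2 FPKM. Relative to all genes the log2 ratios of Scap and Mbtps1 were -0.30 and -0.53.

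Genes of glucose sensing around ChREBP had a median log2 ratio of 0.37 with 3 of 9 higher and 1 lower (2 and 1 relative to all genes). Gckr, a regulatory protein of glucose use in hepatocytes, stood at 31.5 against 12.3 FPKM, 2.56-fold lower (2.36 to 2.78). Among those higher, Txnip, a thioredoxin-binding protein and known ChREBP target, was at 24.6 against 92.2 FPKM, and G6pc, the catalytic subunit of glucose-6-phosphatase, at 134 against 276 FPKM. Mlx, the obligate partner of ChREBP, stood at 8.25 against 8.38 FPKM.

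Insulin and LXR inputs had 0 of 12 tested members past 2-fold on the log2(FPKM + 1) scale, there or relative to all genes, and a median of 0.24. On the ratio of the FPKM themselves Irs1, an adaptor of the insulin receptor, was past it at 2.39 against 5.08 FPKM, 2.13-fold higher (1.93 to 2.35), and it missed the rule through the pseudocount. Nr1h2, which encodes LXR beta, had the highest log2 ratio of the list, 0.90 against 0.84 for Irs1, and stood at 18.7 against 35.8 FPKM. Rxra, the partner of LXR, had the lowest ratio at 62.1 against 45.5 FPKM, and the highest level of the list in the wild-type library. AMPK, the kinase that inactivates acetyl-CoA carboxylase, had 1 of 8 subunit and upstream kinase genes higher and 0 lower (0 and 2 relative to all genes), with a median of 0.40. Its catalytic subunit genes went opposite ways, Prkaa1 at 2.46 against 6.27 FPKM and Prkaa2 at 4.55 against 2.08 FPKM, while the most abundant member, the regulatory subunit gene Prkab1, was at 19.9 against 29.5 FPKM.

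Thyroid hormone input had a median of 0.24 and 1 of 7 genes at least 2-fold lower, with 0 higher (2 and 0 relative to all genes). Dio1, the deiodinase that activates thyroid hormone in liver, stood at 69.2 against 7.18 FPKM, 9.65-fold lower (8.59 to 10.9). Slc16a10, a thyroid hormone transporter gene, was at 8.40 against 15.9 FPKM. Thrsp, for which this list was drawn up, was close to the detection limit in both libraries.

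Lipogenic transcripts are also known from adipose tissue and from glands, so markers of other tissues are given beside them. The summed level of 9 adipocyte markers was 80.2 against 155 FPKM, and only 3 of them passed the filter, Cidec through the knockout library alone. Within the list Cidec had 22 against 1502 reads, Fabp4 875 against 1705, Plin1 0 against 49 and Adrb3 36 against 50, while Car3 had 1133 against 751. The defining genes Adipoq, Lep, Retn and Cfd had 0 against 4, 0 against 1, 0 against 0 and 1 against 5 reads. Markers of the exocrine pancreas summed to 7.30 against 578 FPKM, with 0 of 9 at 0 reads in the knockout library. Ctrb1, a chymotrypsinogen, had 4 against 5466 reads, and Amy2a5, pancreatic amylase, 167 against 916. Skeletal muscle markers summed to 0.195 against 69.8 FPKM, from 7 against 2809 reads. Keratinocyte, mammary and sebaceous markers summed to 0.0141 against 9.12 FPKM, with Krt5, a basal keratin, at 0 against 334 reads. Of the tested markers, 6 of 8 for pancreas, 6 of 6 for muscle and 2 of 2 for the epithelia passed the filter through the knockout library alone, so their counts past 2-fold are not given.

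Among resident cell types, stellate and matrix markers summed to 165 against 448 FPKM (5 of 8 higher, 1 relative to all genes), macrophage markers to 195 against 434 FPKM (2 of 7 higher, 0 relative) and bile duct markers to 34.0 against 69.4 FPKM (3 of 5 higher, 1 relative), with 0 lower in each on either scale. Of the bile duct markers counted as higher, 2 passed the filter through the knockout library alone. The 9 hepatocyte markers summed to 75892 against 38047 FPKM, with 1 higher and 2 lower, and relative to all genes 1 higher and 6 lower. Over all tested genes 19.2% were higher and 2.95% lower, and 5.67% and 6.66% relative to the median. The part of these differences in the levels of the 10 genes was not tested.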

How the data were processed

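Liver RNA of 1 wild-type and 1 SRSF2 knockout library was grouped by the genotype in the labels. Reads were aligned with Bowtie 0.12.2 and the genome build was mm9, per the submitters' processing notes. For the counting program, annotation release, use of strand and reads with several matches, details were not given in the sources used here. Per the file headers, each RefSeq accession has a raw read count, deposited as a whole number. Beside it stands the FPKM that the authors computed from transcript length and library size.

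Lines of 1 accession were summed, accessions were named through RefSeq (GRCm38.p6) and GENCODE tables (23419 of 26449 named), and counts and FPKM were summed per gene. Intervals of read ratios were scaled by 1.012, the FPKM worth of 1 read in the knockout over the wild-type library. Levels carry exact Poisson intervals of the count. Nothing was tested, since each genotype has 1 library. The computation was tested on simulated data. The members, the lists and the size rule were chosen with earlier results of these data known. The text names all 10 members and, from each list around them, the highest ratio, the lowest ratio, the most abundant tested gene and relatives or partners of the members. Some list members are counted but not reported here by name. Other list members past 2-fold, the marker genes printed and the sex chromosome genes were named after their values were seen. Alternatives changed the pseudocount, filter, scaling, accession or size rule, 1 at a time. No protein sequences were used here. Software was Python 3.11.15 with scipy 1.17.1, pandas 2.3.3, numpy 2.4.6 and, for plots, matplotlib 3.10.9.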

Additional observations from a re-analysis of the deposited data

How the results depend on the processing

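Under every alternative that gave a value, 87 values in all, each of the 10 genes kept its direction except Thrsp. The log2 ratio of Thrsp was -0.03 after centring on all genes. Changes of pseudocount or filter cannot reverse a direction, nor can the choice of accession, since each gene has 1. Only the TPM scale, centring and rescaling without the 20 most abundant genes could do so. Thrsp gave no value under a filter of 5 FPKM or after rescaling without the 20 most abundant genes, where it fell under the filter, and Elovl6 none under the filter of 5 FPKM. The median log2 ratio of the 10 genes, 0.82 as reported, was 1.07 with a pseudocount of 0.1, 0.54 with a pseudocount of 5, 0.27 after centring, 0.65 without the 20 most abundant genes and 1.15 with no pseudocount, an alternative chosen after seeing the data. The genes at least 2-fold higher, 4 as reported, were 6 with a pseudocount of 0.1 or none and 1 with a pseudocount of 5. They were 3 with a filter of 5 FPKM or without the 20 most abundant genes, 5 on the TPM scale and 2 after centring. At 1.5-fold they were 7 and at 4-fold 1. Those lower, 1 as reported, were 2 after centring, without the 20 most abundant genes or at 1.5-fold, and 0 at 4-fold.

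Over all tested genes the median of 0.55 was 0.68 with a pseudocount of 0.1, 0.30 with 5, 0.10 with no filter, 0 after centring, 0.29 without the 20 most abundant genes and 0.70 with no pseudocount. The 2396 genes higher were 3797 with a pseudocount of 0.1, 786 with 5, 3628 on the TPM scale, 708 after centring, 1297 without the 20 most abundant genes, 3930 with no pseudocount, 5914 at 1.5-fold and 344 at 4-fold. The 368 lower were 232 with a pseudocount of 5, 831 after centring, 565 without the 20 most abundant genes, 687 at 1.5-fold and 94 at 4-fold. For the pathway lists together the median of 0.53 was 0.30 with a pseudocount of 5, -0.022 after centring and 0.21 without the 20 most abundant genes. Their 22 higher genes were 11 after centring, 42 at 1.5-fold and 5 at 4-fold, and their 3 lower were 9 after centring, 6 without the 20 most abundant genes, 7 at 1.5-fold and 1 at 4-fold. Where no alternative's construction shows it, the cause was not tested. Depth limits Thrsp most, with 12 reads in the wild-type library. No paired analysis was possible because each genotype has 1 library.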

Other observations

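Genes of fat uptake and storage in the liver, a list of 9 drawn up after the results were seen, had 4 of 7 tested members at least 2-fold higher and 0 lower in the knockout library (2 and 0 relative to all genes), against 19.2% and 2.95% of all tested genes (5.67% and 6.66%). Of the 7, 2 passed the filter through the knockout library alone, Cidec among them. Since the list was drawn up with the results known, its counts cannot be read as an excess over the shares of all tested genes. The adipocyte markers above also include Cidec, Fabp4 and Plin1, and the tissue these transcripts came from was not tested. Cidec, a lipid droplet fusion protein, stood at 0.484 against 33.4 FPKM, 69.1-fold higher (45.5 to 110.6). Plin2, the main droplet coat protein of hepatocytes, stood at 76.0 against 320 FPKM, 4.21-fold higher (4.06 to 4.36). Pparg, a nuclear receptor known to promote fat storage, was at 6.10 against 13.7 FPKM and Cd36, a fatty acid carrier, at 10.4 against 22.9 FPKM. G0s2, an inhibitor of triglyceride lipolysis, was at 57.0 against 87.9 FPKM. Plin1, the droplet coat protein of adipocytes, had 0 against 49 reads.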
